A study of Saccharomyces cerevisiae with 4 samples.

Results

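GCN4, the activator of amino acid synthesis genes in budding yeast, and HIS1, HIS2, HIS4, HIS5, HIS6 and HIS7, enzymes of histidine synthesis, were followed through a proximity-specific ribosome profiling experiment. These 7 genes were taken by name from the 6692 genes of the deposited table. They were chosen by a measured value: targets of Gcn4 had more footprints in the input with cycloheximide than in the input without it. The comparison of inputs is therefore a description of genes picked for it. The labels name no separate cultures for the pulldowns, so their comparison between conditions is not taken as an independent replicate. HIS3, the remaining enzyme of the pathway, was left out because the strain carries a partial deletion of it.

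The cells were Saccharomyces cerevisiae of the S288C background, 1 strain in all groups. The biotin ligase BirA was joined to mVenus and to Om45 of the mitochondrial outer membrane, at the OM45 locus with a HIS5 marker. Both RPL16A and RPL16B carried HA, TEV and AVI tags, so that ribosomes near the ligase could be biotinylated, and a second BirA gene under the PGK1 promoter is listed at leu2 with a LEU2 marker. The remaining alleles were ura3Δ0, met15Δ0 and his3Δ1. Cells grew in SD medium with 0.125 ng/ml biotin and received 10 nM biotin for 2 min. In the arm with cycloheximide, a blocker of translation elongation, 100 µg/ml was given 2 min earlier, and the other arm had no drug. Footprints of all ribosomes (input) and of streptavidin-bound ribosomes (pulldown) were sequenced in each arm, which gave 4 groups of 1 library. No difference below has a replicate check, no test across libraries could be made, and the drug cannot be told apart from the state of the cells that received it. The labels do not give the species of the HIS5 marker. If it was the budding yeast gene, reads of the marker and of the resident HIS5 cannot be told apart.

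Histidine is made in the cytosol from ATP and phosphoribosyl pyrophosphate. Gcn4 is a leucine zipper protein that binds upstream of many amino acid synthesis genes. Its own messenger carries short upstream reading frames that hold ribosomes back in fed cells; when amino acids are short, the kinase Gcn2 phosphorylates eIF2 and more ribosomes reach the GCN4 frame. Footprints count ribosomes on a message, so more message and more ribosomes per message cannot be told apart here, and the table gives 1 count per gene, with no value for the upstream frames.

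All 7 members had the same symbol in the reference annotation of build R64, each as a protein-coding gene, and no annotated gene overlapped any of them. GCN4 (YEL009C) lies on chromosome V from 138918 to 139763 and HIS1 (YER055C) on the same chromosome from 264892 to 265785. HIS4 (YCL030C) lies on chromosome III from 65934 to 68333, HIS7 (YBR248C) on chromosome II from 714807 to 716465 and HIS2 (YFR025C) on chromosome VI from 203743 to 204750. HIS5 (YIL116W) and HIS6 (YIL020C) share chromosome IX, from 142928 to 144085 and from 314035 to 314820. The genes are thus scattered over 5 chromosomes. The authors' annotation places none of the 7 in mitochondria and predicts a signal sequence for none. Where it gives a GFP localization, for GCN4, HIS2, HIS4 and HIS7, it is the cytoplasm, with the nucleus added for GCN4 and HIS7. Predicted mitochondrial presequences were weak, with MitoProt scores between 0.0089 for GCN4 and 0.188 for HIS5 on a scale from 0 to 1. The products range from 261 residues for HIS6 to 799 for HIS4.

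The listed genes held from 15705022 to 37467060 reads in a library. Together the 7 members held 0.0790% of the reads in nuclear genes of the input without cycloheximide (Wilson 95% interval 0.0777% to 0.0803%) and 0.434% in the input with it (0.432% to 0.437%). In the pulldowns they held 0.0807% without the drug (0.0793% to 0.0821%) and 0.355% with it (0.353% to 0.356%). The members' share was thus several times larger with the drug in both kinds of library. Such intervals, here and below, cover counting error only, with each read taken as independent, since each group has 1 library. Without molecular identifiers a read is not an independent molecule, so the intervals can be too narrow even for counting error. Ratios between libraries are given on the log2 scale, and each is taken against the median gene of its own comparison. On the scale of library totals the median gene itself stood at 0.74 in the input comparison, 0.10 in the pulldown comparison, -0.73 in the pulldown over input with the drug and -0.03 without it. A value between -0.74 and 0 in the input comparison is therefore positive on library totals. Counts of higher and lower genes use a distance of 2-fold or more from the median gene.

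GCN4 had 924 reads in the input without cycloheximide, 612 in its pulldown, 14041 in the input with the drug and 11292 in that pulldown. Both libraries with the drug stand far above both without it. Relative to the median gene, the GCN4 input ratio was 2.88 (95% interval 2.78 to 2.98), or 7.36-fold, the 89th highest of 5380 genes measured. On library totals the ratio was 12.3-fold. The pulldown ratio of GCN4 was 2.85 (2.74 to 2.97), so relative to the median gene inputs and pulldowns gave nearly the same value. On library totals the pulldown ratio was 7.73-fold, smaller than the 12.3-fold of the inputs.

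HIS1 encodes the ATP phosphoribosyltransferase of the first, committed step, which histidine inhibits. It had 3940 reads in the input without cycloheximide, 3318 in its pulldown, 23411 in the input with the drug and 26730 in that pulldown. Its input ratio relative to the median gene was 1.52 (1.48 to 1.57) and its pulldown ratio 1.66 (1.61 to 1.71). HIS1 had the highest footprint level per length of the members in all 4 libraries.

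HIS4 encodes a protein with several activities, which catalyses steps early in the pathway and the last one, histidinol dehydrogenase. It had 4388 reads in the input without cycloheximide, 4659 in its pulldown, 33303 in the input with the drug and 71293 in that pulldown. On library totals HIS4 was 1.29-fold higher in the pulldown than in the input with the drug, and every other member was lower there. Relative to the median gene the HIS4 input ratio was 1.88 (1.83 to 1.92) and the pulldown ratio 2.58 (2.54 to 2.63). The pulldown ratio was thus the larger, and the intervals did not overlap. On library totals both ratios were nearly equal, at 2.61 in the inputs and 2.68 in the pulldowns.

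HIS6 and HIS7 act next, HIS6 as an isomerase and HIS7 as the glutamine-using amidotransferase and cyclase that closes the imidazole ring. HIS6 had 564 reads in the input without cycloheximide, 431 in its pulldown, 949 in the input with the drug and 904 in that pulldown. It was the only member below the median gene in the input ratio, at -0.30 (-0.45 to -0.14), although on library totals it stood above 0, at 0.44. Its pulldown ratio was -0.28 (-0.45 to -0.12). HIS7 had 2458 reads in the input without the drug, 1930 in its pulldown, 9513 in the input with it and 8906 in that pulldown. Its input ratio of 0.91 (0.84 to 0.97) lay just under 2-fold relative to the median gene, and its pulldown ratio was 0.85 (0.78 to 0.93).

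HIS5 encodes histidinol-phosphate aminotransferase and HIS2 the phosphatase that follows it. HIS5 had 1311 reads in the input without cycloheximide, 1051 in its pulldown, 14292 in the input with the drug and 11531 in that pulldown. Its input ratio of 2.40 (2.32 to 2.48) was the highest of the 6 enzymes, and its pulldown ratio was 2.10 (2.01 to 2.20). HIS2 had 767 reads in the input without the drug, 673 in its pulldown, 2323 in the input with it and 2191 in that pulldown. Its input ratio was 0.55 (0.43 to 0.67) and its pulldown ratio 0.35 (0.23 to 0.48). The adjacent steps of HIS5 and HIS2 thus had intervals that did not overlap in either comparison. HIS3, which acts between HIS7 and HIS5, is given by its reads alone: 1211 in the input without cycloheximide, 901 in its pulldown, 6790 in the input with the drug and 6175 in that pulldown.

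**Figure D1:**
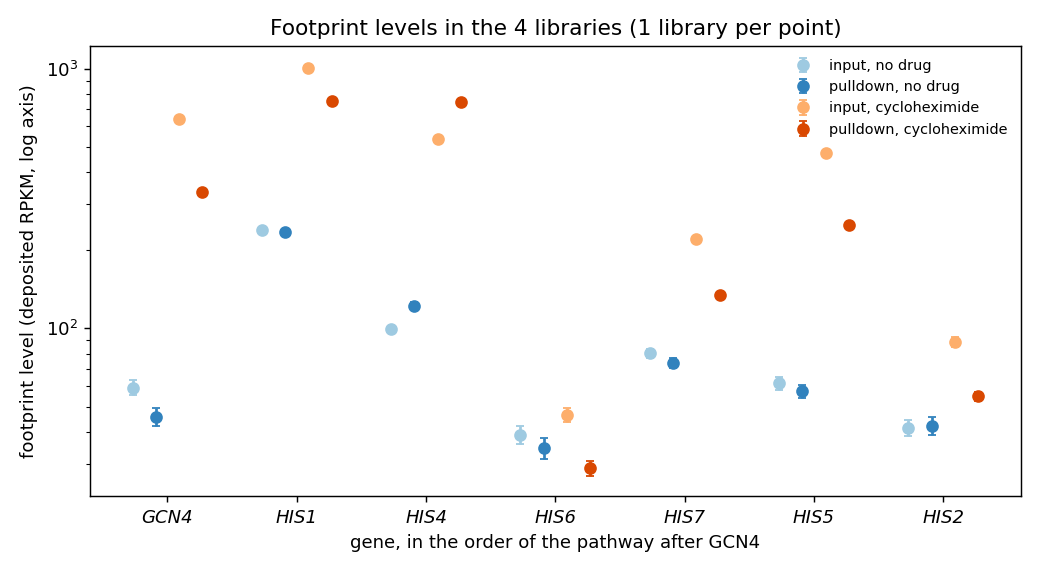
Footprint level of each gene (vertical log axis, deposited RPKM) in each of the 4 libraries, with genes on the horizontal axis in pathway order after GCN4. Points are single libraries and bars are 95% Poisson intervals of the count; HIS6 stays between 28.9 and 46.5 RPKM, while GCN4 spans 45.6 to 639.

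Counted relative to the median gene, 4 of the 7 members were at least 2-fold higher in the input with cycloheximide: GCN4, HIS5, HIS4 and HIS1. Of all 5380 genes measured, 10.6% were, and since the members were picked on this comparison nothing is read from the difference. No member was at least 2-fold lower, against 10.4% of all genes. On library totals 6 of the 7 were at least 2-fold higher, all but HIS6, against 34.9% of all genes. In the pulldowns the same 4 members, GCN4, HIS4, HIS5 and HIS1, were at least 2-fold higher with the drug, against 17.9% of 5395 genes. The median of the 7 was 1.52 in the inputs and 1.66 in the pulldowns, where the median of all genes is 0 by construction.

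**Figure D2:**
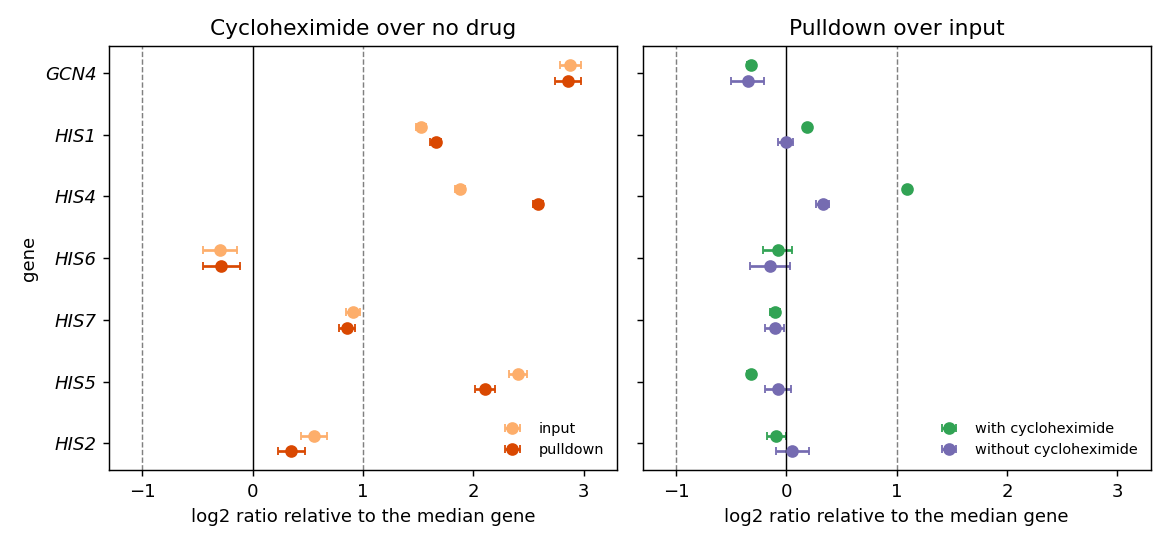
Log2 ratios of the 7 genes relative to the median gene (horizontal axes) with 95% counting intervals, for cycloheximide over no drug (left, inputs and pulldowns) and for pulldown over input (right, both conditions). Dashed lines mark 2-fold; on the left the inputs run from -0.30 for HIS6 to 2.88 for GCN4, and on the right only HIS4 with the drug, at 1.09, passes 2-fold.

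The order of footprint levels differed between conditions. Levels between genes are compared per length, in the deposited RPKM. In the input without cycloheximide HIS1 stood at 239, HIS4 at 99.1, HIS7 at 80.3, HIS5 at 61.4, GCN4 at 59.2, HIS2 at 41.3 and HIS6 at 38.9. The counting intervals of HIS5 and GCN4 overlapped there, as did those of HIS2 and HIS6. In the input with the drug HIS1 stood at 1007, GCN4 at 639, HIS4 at 534, HIS5 at 475, HIS7 at 221, HIS2 at 88.7 and HIS6 at 46.5, with no overlap between neighbours. GCN4 thus moved from the fifth place to the second, and HIS5 passed HIS7. The highest member exceeded the lowest 6.14-fold in the input without the drug and 21.7-fold in the input with it. GCN4 stood at 0.836 times the median RPKM of the 6 enzymes without the drug and at 1.84 times with it.

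In the pulldown without cycloheximide the order was the same as in its input, with HIS1 at 234, HIS4 at 122 and HIS6 lowest at 34.6 RPKM, and the intervals of GCN4 at 45.6 and HIS2 at 42.1 overlapped. In the pulldown with the drug HIS1 at 752 and HIS4 at 747 had overlapping intervals, GCN4 followed at 336 and HIS6 was again lowest at 28.9. Among nuclear genes, GCN4 ranked 1770th by RPKM in the input without the drug and 315th in the input with it. HIS6 ranked 2315th and 2672nd.

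**Figure D3:**
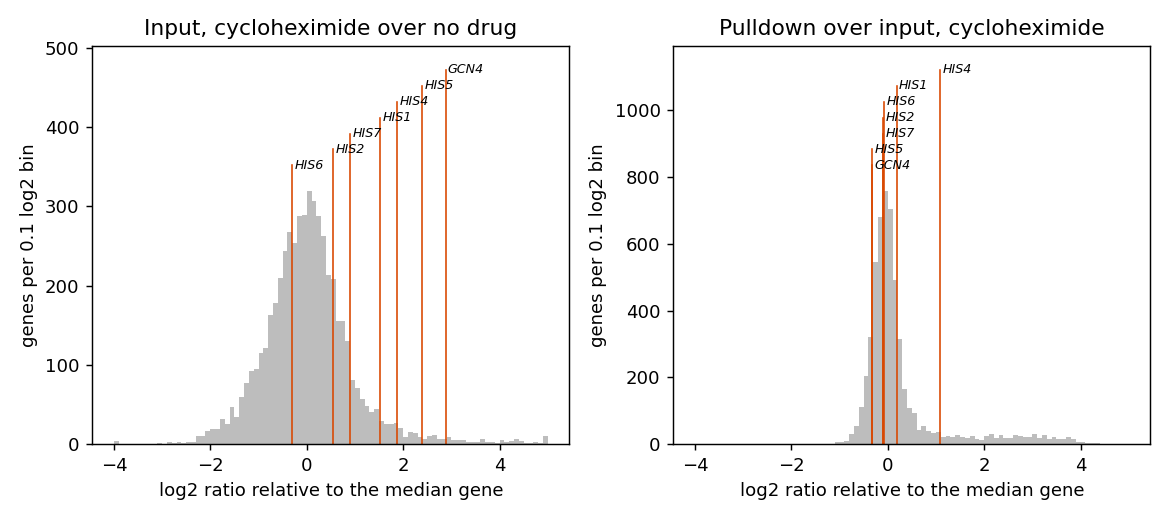
Histograms of all genes measured (vertical axis, genes per 0.1 log2 bin) by log2 ratio relative to the median gene, for the inputs (left, 5380 genes) and for pulldown over input with cycloheximide (right, 5464 genes), with the 7 members marked by orange lines of arbitrary height. Values beyond the axis are in the end bins; on the left panel HIS6 lies just left of the median gene and the other 6 to its right, and on the right panel the members other than HIS4 sit in the central peak.

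Enrichment near Om45, the ratio of pulldown to input, was close to that of the median gene for most members. For scale, the bait OM45 stood at 4.27 with cycloheximide and at 2.26 without it. With the drug GCN4 stood at -0.32 (-0.36 to -0.29), HIS5 at -0.32 (-0.35 to -0.28), HIS7 at -0.10 (-0.14 to -0.06), HIS2 at -0.09 (-0.18 to -0.01) and HIS6 at -0.08 (-0.21 to 0.06). HIS1 stood slightly above 0, at 0.18 (0.16 to 0.21). HIS4 alone passed 2-fold, at 1.09 (1.07 to 1.11), so 1 of 7 members passed that size against 12.5% of 5464 genes. On library totals HIS4 stood at 0.36, under 2-fold. GCN4 at -1.05 and HIS5 at -1.04 were at least 2-fold lower on that scale, as were 880 of 5464 genes. The authors' deposited table gives HIS4 a log2 enrichment of 0.49 with the drug, GCN4 -0.93 and HIS1 -0.42, before any centring, and the table's own calls mark none of the 7 as enriched in either condition.

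Without cycloheximide no member passed 2-fold, against 6.39% of 5148 genes. The values ran from -0.35 for GCN4 (-0.50 to -0.20) to 0.33 for HIS4 (0.27 to 0.39). HIS1 stood at -0.01 (-0.07 to 0.06), HIS2 at 0.05, HIS5 at -0.08, HIS7 at -0.11 and HIS6 at -0.14, and of these the interval of HIS7 alone did not reach 0. HIS4 was thus the highest and GCN4 the lowest of the members in both conditions. The interval of GCN4 overlapped that of HIS5 with the drug and that of HIS6 (-0.33 to 0.04) without it. Of all genes measured, 12.2% lay below GCN4 with the drug and 7.71% without it.

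In the difference of enrichments, with the drug minus without it, HIS4 was the highest member. HIS4 stood at 0.72 (0.66 to 0.78) relative to the median gene, and the next member, HIS1, at 0.15 (0.08 to 0.22). On library totals, where the median gene stood at -0.65, HIS4 was at 0.07 and HIS1 at -0.51. GCN4 stood at -0.01 (-0.16 to 0.14), HIS6 at 0.02 (-0.20 to 0.25) and HIS7 at -0.04 (-0.13 to 0.06), intervals that all hold 0. HIS2 stood at -0.19 (-0.36 to -0.02) and HIS5 lowest at -0.28 (-0.41 to -0.16). None of the 7 had a difference of at least 2-fold, against 9.57% of 5141 genes. Enrichments use the same inputs as the input ratios, so these sets of values are not independent.

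The reads of the group shifted toward HIS4 in the pulldown with cycloheximide. HIS4 held 30.6% of the members' reads in the input without the drug (Wilson 95% interval 29.8% to 31.3%), 36.8% in its pulldown (35.9% to 37.6%), 34.0% in the input with the drug (33.7% to 34.3%) and 53.7% in that pulldown (53.4% to 53.9%). Among genes that the authors annotate as mitochondrial by neither of their criteria, 4.42% of 4366 passed 2-fold with the drug, and HIS4 was the 167th highest of them. Its value there lay inside the central 95% of those genes, which ran from -0.57 to 1.46. This comparison with unannotated genes was added after the values were seen.

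**Figure D4:**
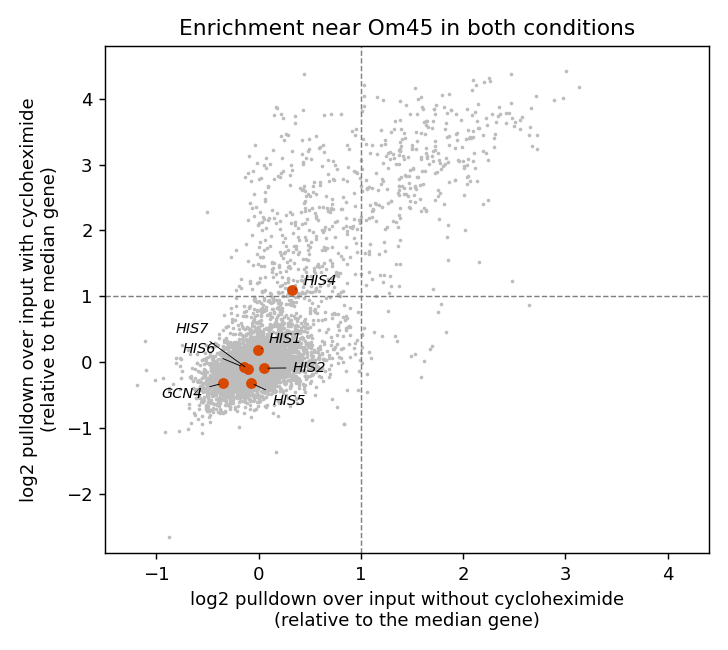
Enrichment of every gene without (horizontal axis) and with (vertical axis) cycloheximide, as log2 pulldown over input relative to the median gene; grey points are single genes, orange points the 7 members, and dashed lines mark 2-fold. HIS4 lies at 0.33 and 1.09, above the dense cloud that holds the other 6.

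Other genes of amino acid metabolism were described by the same input ratio. Gcn4 targets were known to be higher in this comparison, and the lists were drawn up with earlier results of these data known. The counts here and in the next paragraphs are therefore description only. Of 65 genes for the synthesis of other amino acids, 15 were at least 2-fold higher in the input with cycloheximide relative to the median gene and 9 at least 2-fold lower, with a median of -0.11. On library totals 26 were higher and 3 lower. Of all genes, relative to the median gene, 10.6% were higher and 10.4% lower. Arginine synthesis held most of the higher ones, 8 of 9 genes with a median of 1.68. They ran up to ARG7, the mitochondrial ornithine acetyltransferase, at 2.38 (2.32 to 2.45), and CPA1, the small subunit of carbamoyl phosphate synthetase, was lowest at 0.76 (0.63 to 0.90). Of 7 lysine genes 2 were higher, LYS20 at 1.75 and LYS1 at 1.68, while LYS9, a saccharopine reductase, was lowest at -0.97. Of 12 aromatic genes 2 were, TRP4, the anthranilate phosphoribosyltransferase, at 1.31 and ARO3, a DAHP synthase, at 1.30, with TRP5, tryptophan synthase, lowest at -0.75.

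Several of the other pathways held genes far on the lower side. No branched-chain gene of 10 was at least 2-fold higher in the inputs, with values from LEU1, the cytosolic isopropylmalate isomerase, at -1.25 to LEU4 at 0.92. Of 5 threonine and homoserine genes 1 was higher, HOM3, the aspartate kinase, at 1.26, and HOM6 was lowest at -0.94. None of 12 genes for serine, asparagine, glutamine, glutamate and proline was, and their values ran from SER3, a phosphoglycerate dehydrogenase, at -2.14 to ASN1, an asparagine synthetase, at 0.81. Of 10 genes of sulfate assimilation and methionine synthesis 2 were higher, MET16 at 1.54 and MET13 at 1.12, and 5 were lower, down to MET6, methionine synthase, at -1.91. LYS1, ARO3 and MET13 were named after their values were seen. The 6 histidine enzymes, with 3 of 6 higher and a median of 1.22, stood between arginine synthesis and the other lists by the median.

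**Figure D5:**
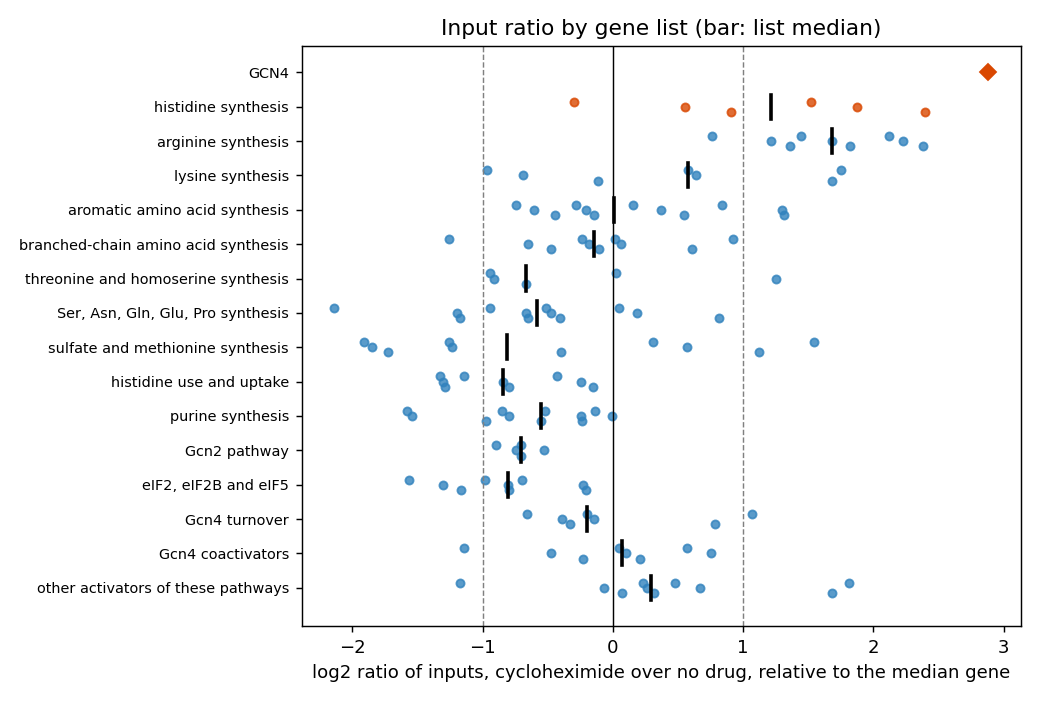
Input ratio, cycloheximide over no drug, of every gene on each list (horizontal axis, log2 relative to the median gene), with 1 point per gene, a black bar at each list's median and dashed lines at 2-fold. GCN4 lies at 2.88, arginine synthesis has its median at 1.68 and histidine synthesis at 1.22, and the medians of the other lists lie between -0.84 and 0.58.

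Genes for the use and uptake of histidine and for its precursors did not stand with the enzymes that make it. The list of 9 also held purine synthesis genes, which are counted again on the purine list below. None of the 9 was at least 2-fold higher in the input with cycloheximide, and 4 were at least 2-fold lower. HTS1, the histidyl-tRNA synthetase of both cytosol and mitochondria, was lowest at -1.32 (-1.38 to -1.27), and PRS2, of phosphoribosyl pyrophosphate synthesis, was highest at -0.15 (-0.27 to -0.02). Purine synthesis, which shares an intermediate with the histidine pathway, had none of 11 genes higher and 2 lower, from ADE6 at -1.58 to ADE8 at -0.01, with a median of -0.55. On library totals all values of the input comparison are 0.74 higher, so the purine median turns positive there, and 0 of the 11 purine genes and 0 of the 9 histidine use genes are at least 2-fold lower.

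The factors that control GCN4 translation were below the median gene in the input ratio. The Gcn2 pathway, of 5 genes, ran from GCN1, a ribosome-bound activator of Gcn2, at -0.90 to the kinase gene GCN2 at -0.53 (-0.63 to -0.43), with a median of -0.71, and none passed 2-fold either way. On library totals GCN2 and some others of the 5 stand above 0, while GCN1 stays below it. Of 9 genes of eIF2, eIF2B and eIF5 none was higher and 3 were lower, with GCD11, the gamma subunit of eIF2, at -1.57 (-1.61 to -1.52) and GCN3, a regulatory subunit of eIF2B, highest at -0.21. On library totals GCN3 and some others of these 9 genes stand above 0, GCD11 stays below it, and 0 of the 9 were at least 2-fold lower.

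Among factors that act on or beside the Gcn4 protein, few stood out. Of 7 genes of Gcn4 turnover 1 was at least 2-fold higher, SSN8, a cyclin of the Mediator kinase, at 1.07 (0.81 to 1.35), and the cullin gene CDC53 was lowest at -0.66. Of 8 coactivator genes none was, with the acetyltransferase gene GCN5 highest at 0.76 and MBF1, a bridging factor, lowest at -1.14. Of 10 other activators of these pathways 2 were: ARG80, a regulator of arginine genes, stood at 1.81 (1.52 to 2.13) and MET28, a factor of the sulfur pathway, at 1.68 (1.45 to 1.92), the latter named after its value was seen. RAP1, which also binds at HIS4, was lowest on that list at -1.18.

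The genes nearest to GCN4 were sought over 3 values, the input ratio and both enrichments, among 4866 genes with at least 100 reads in each of the 4 libraries. Nearness was the Euclidean distance in log2 units. IRC23 was nearest at 0.36, followed by ADH5, an alcohol dehydrogenase, at 0.38, TMT1, a methyltransferase, at 0.57, UGA3, an activator of GABA use, at 0.60 and SSU1, a sulfite exporter, at 0.62. HIS5, at a distance of 0.55 from GCN4, was nearer than TMT1, and HIS6 was the farthest member, at 3.19. Nearest to the median profile of the 6 enzymes were SKP2 at 0.07, NVJ1 at 0.08, TEM1 at 0.09, TRS20 at 0.11 and GUD1 at 0.12. The 6 enzymes themselves lay at distances from 0.32 for HIS7 to 1.51 for HIS6 from that median. The genes named before them were picked as the nearest of 4866, so nothing is read from their being nearer.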

How the data were processed

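Ribosome footprints were measured in 4 libraries, an input and a pulldown with and without cycloheximide, grouped by sample title. The deposited table gives raw counts of reads per gene, per the file headers. It also gives RPKM, scaled by the authors to gene length and library reads, and the authors' log2 enrichment of pulldown over input RPKM. The deposited MitoProt score is a fraction between 0 and 1. Per the submitters' processing notes, CASAVA and build sacCer3 were used; how reads were aligned, and how those with several matches were treated, is not stated in these sources. The table has 5 further per-sample columns, of another fusion protein, not used here.

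Counts were scaled to the reads of nuclear genes (28 mitochondrially encoded genes were left out) with a pseudocount of 0.5 reads. A gene entered a comparison with 100 or more reads summed over its libraries (over each pair for the difference of enrichments), and each comparison was centred on its median gene. Intervals are exact Clopper-Pearson intervals on the pair of counts, exact Poisson intervals for levels, and the normal approximation on the log scale for differences, all at 95%. Rank and distance are descriptions, and no p-value was computed.

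The members and the 15 pathway lists (128 genes) were chosen with earlier results of these data known. The genes named are the members, HIS3 by reads, the bait, the highest and lowest gene of each list in the input ratio, and the 5 genes nearest to GCN4 and to the median enzyme. LYS1, ARO3, MET13, MET28, MET10 and THR1 lie outside this rule and were named after their values were seen. Of the identifiers, 6008 were in the reference gene table (R64), which gave coordinates; ADA3 was found as NGG1. For the alleles labelled as deletions, MET17 had 4 reads over the 4 libraries and URA3 had 0. LEU2, listed as a marker, had 0 reads in either input, 1 in the drug pulldown and 2 in the other, which does not match a LEU2 marker of budding yeast; the labels do not give its species. The procedure was tested on simulated counts with known folds. Reads there were drawn independently and as many genes were raised as lowered, so the simulation could not check the choice of scale. Alternatives were library totals, TMM scaling (edgeR 4.0.16, R 4.3.3), a pseudocount of 1, minimums of 20 and 500 reads, deposited RPKM and log2 enrichment, and folds of 1.5 and 4. Python 3.11.15 was used with scipy 1.17.1, numpy 2.4.6, matplotlib 3.10.9 and pandas 2.3.3.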

Additional observations from a re-analysis of the deposited data

How the results depend on the processing

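The choice of scale mattered most. On library totals without centring, the median of the 7 members became 2.26 in the inputs, 1.76 in the pulldowns, -0.82 in the enrichment with cycloheximide and -0.66 in the difference of enrichments; this follows from the position of the median gene. On that scale 0 members were at least 2-fold enriched with the drug, HIS4 falling out. GCN4 at -1.05 and HIS5 at -1.04 were at least 2-fold lower there in that enrichment. Of the 122 other listed genes, 35 were at least 2-fold higher in the inputs on library totals, against 18 relative to the median gene. The input median was 1.47 under TMM scaling and 1.58 with a minimum of 500 reads. At 4-fold, 2 members were counted in the inputs and 0 in the enrichment with the drug, and at 1.5-fold 1 member, HIS4, had a difference of enrichments. TMM scaling moved single member values by -0.06 to 0.08. The pseudocount of 1, the minimum of 20 reads, and the deposited RPKM and authors' log2 enrichment, both centred on the median gene, left all member values within their intervals; uncentred, the authors' values differ as library totals do. No alternative moved a member value by more than 0.74, so a value past 2-fold could not change sign. Several smaller values did. On library totals the HIS6 input ratio went from -0.30 to 0.44, and the HIS1 enrichment with the drug from 0.18 to -0.54. The planned count of Gcn4 motifs in promoters was not run, since no sequences were used here. Depth limits HIS6 and HIS2 most, the members with the fewest input reads.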

Other observations

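Of the 104 listed genes that the authors annotate as mitochondrial by neither of their criteria, 5 passed 2-fold relative to the median gene in pulldown over input with cycloheximide. On library totals 1 of these, MET6, did, and HIS4 at 0.36, MET10 at 0.33, TRP4 at 0.30 and THR1 at 0.27 did not. They were named after their values were seen. MET6, the cytosolic methionine synthase, stood at 2.43 (95% counting interval 2.41 to 2.44) with the drug and at 1.53 (1.52 to 1.54) without it, and is the one of the 5 that the authors' deposited table calls enriched with the drug. HIS4 stood at 1.09, MET10, a subunit of sulfite reductase, at 1.06, TRP4 at 1.03 (0.99 to 1.07) and THR1, the homoserine kinase, at the 2-fold line with an interval of 0.96 to 1.04. Without the drug these 4 lay lower, with HIS4 at 0.33, MET10 at 0.50, TRP4 at 0.29 and THR1 at 0.27. Their input ratios went different ways, with HIS4 at 1.88, TRP4 at 1.31, THR1 at -0.67 and MET10 at -1.26. HTS1, which makes both a cytosolic and a mitochondrial enzyme, stood at 1.20 (1.15 to 1.25) with the drug and at -0.01 (-0.06 to 0.04) without it. On library totals HTS1 too was under 2-fold with the drug.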
